A study of Macaca mulatta with 5 samples.

Results

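Neurospheres grown in a selection medium (N1) were compared with the embryoid bodies (EB) from which they were made, in cultures of the rhesus macaque embryonic stem cell line 366.4. The 2 arrays were chosen by their labelled stage from the 5 of the series, which also holds undifferentiated cells of passage 13 on mouse embryonic fibroblasts (ESC), cells expanded with FGF4 (N2) and cells matured without FGF4 (N3). EB were collected at 6 to 8 days with a diameter of 1 to 1.5 mm. N1 spheres were collected after 7 to 9 days in DMEM/F12 with N2 supplement, at 0.25 to 1.25 mm. All 5 stages come from 1 cell line, derived from a flushed preimplantation embryo, and the labels name no transgene and do not say how many spheres went into an extract. Each stage has 1 array, so no difference below could be set against a spread between replicates and no test was possible.

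Embryoid bodies are free-floating aggregates in which stem cells form derivatives of all germ layers at once, among them yolk sac-like and gut-like epithelium, beating heart muscle, blood, vessels and neural tissue. N2 supplement holds insulin, transferrin, selenite, putrescine and progesterone and is used in serum-free medium to favour neural cells. When a neural progenitor becomes a neuron it passes through a known order of genes, from proneural and Notch pathway factors, through transcription factors of newborn neurons such as INSM1, NHLH1 and the EBF family, to tubulins, stathmins and doublecortin of the growing axon and finally to channels, transmitter receptors and release proteins.

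Signals are given in array units after each array was scaled to the same trimmed mean of 500. Values below 100 were treated as at the floor, and a ratio with 1 side below it is written as "at least". A gene was represented by its brightest probe set, and for a gene past 2-fold the log2 ratios of its other measured probe sets are given where any of them missed 2-fold. For genes within 2-fold such values are given only in part. Of 14132 named genes, 10335 reached 100 in EB or N1. In N1, 532 of these genes were at least 2-fold higher (5.15%) and 227 at least 2-fold lower (2.20%), together 7.34%, and 56 were at least 4-fold higher against 10 lower. Of the higher genes 136 were below the floor in EB, and of the lower genes 33 were below it in N1; such a gene was measured only because the other stage was bright. The median gene had a log2 ratio of -0.02. The split by direction moved with the scaling of the arrays: genes higher in N1 were 70.1% of those past 2-fold here, 52.1% when the arrays were quantile normalised, 24.8% when their medians were made equal and 95.2% when the hybridisation controls served as reference. The median of all genes was then -0.08, -0.37 and 0.41. Lists of genes are therefore described relative to all measured genes, and the range given for a list is that of its median minus the median of all genes over 9 alternatives. A scaling that multiplies a whole array by a constant largely cancels in that difference. Counts of list members past 2-fold are to be read beside the shares of all genes, 5.15% higher and 2.20% lower. No count was tested against those shares, and in a short list 1 gene alone makes a large share. Genes higher in N1 lay mostly among dim genes. Among genes whose brighter signal was 100 to 500, 7.51% were higher and 2.07% lower, whereas at 2000 and above both shares were 1.99%, with 58 genes each way. The 3' to 5' signal ratio of the actin control, a measure of RNA integrity, was 15.2 in EB and 5.43 in N1, and that of GAPDH was 2.78 and 1.69. The EF1A control differed less, at 0.958 and 0.829. The part of RNA integrity in the ratios was not tested. In bulk samples, fewer cells of a type and less RNA per cell cannot be told apart.

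**Figure D1:**
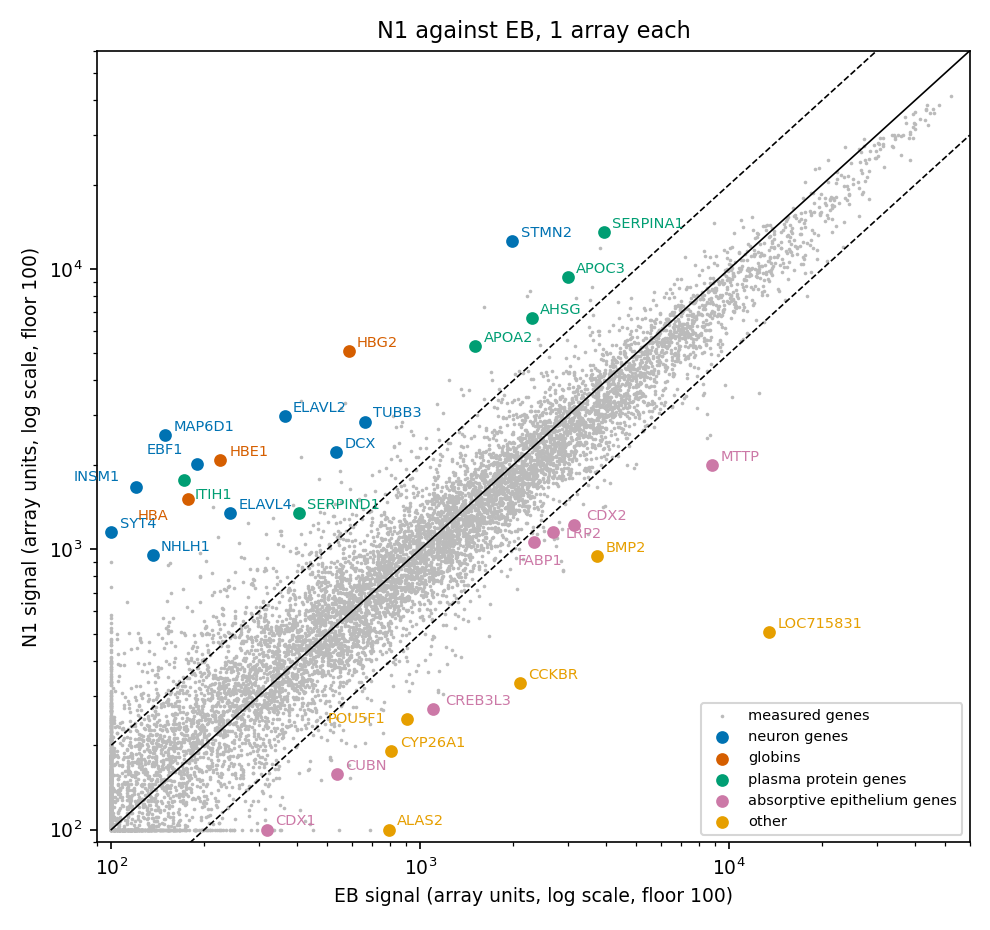
Signal of each measured gene in N1 (vertical axis) against EB (horizontal axis), in array units on log scales with values below 100 drawn at 100. Each point is 1 gene on 1 array per stage, the solid line marks equal signal and the dashed lines 2-fold. Neuron genes, globins and several plasma protein genes lie above the upper line, while MTTP, CREB3L3, BMP2, CCKBR and LOC715831 lie below the lower one.

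The labelled identity was checked against defining markers. Of 11 neuron markers, 7 had a probe set, and 6 of these were at least 2-fold higher in N1, with a summed signal of 4734 in EB and 24233 in N1. ELAVL3 was below the floor in both. Of 7 progenitor markers only SOX2, PAX6 and HES5 had a probe set, and HES5 alone passed 2-fold, by 1 of its 2 probe sets. NES and SOX1 were not analysed here. Markers of other tissues still had signal in N1, but not all were bright. AFP (484), PECAM1 (523) and CDH5 (311) lay below the N1 signal of the median measured gene, 768. The summed signal of the heart markers TNNT2, MYL7 and HAND1 was 21650 in EB and 12701 in N1, and that of APOA1, AFP and FGB, made by yolk sac and liver, was 47498 and 32854. Endothelial markers PECAM1, CDH5 and TEK summed to 10916 and 5796, most of it from TEK. The trophoblast markers CDX2, GATA3 and KRT7 summed to 7149 and 2687, and the red cell markers HBE1, HBG2 and ALAS2 to 1598 and 7253. The higher red cell sum came from the globins HBE1 and HBG2, while ALAS2 went from 789 to 96.5, below the floor. The undifferentiated markers POU5F1, NANOG and DPPA4 summed to 2158 and 2465, but they did not move together. POU5F1 was at 906 in EB and 249 in N1, NANOG at 1178 and 2145, and DPPA4 was below the floor in both. The sum was thus higher through NANOG alone, whose probe set gave 1047 in ESC and 2155 in N3. The N1 array thus held signal of neuron markers together with that of heart, vessel and yolk sac or liver markers and of the globins HBE1 and HBG2.

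Transcription factors of newborn neurons had the largest median ratio of the 43 gene lists. Of 25 listed genes 18 had a probe set and 12 were measured. Of the measured genes, 7 were at least 2-fold higher in N1 (58.3%, against 5.15% of all genes) and none lower. Those 12 had a median log2 ratio of 1.45 and a range of 1.31 to 2.55. Between 5 and 10 of them were at least 2-fold higher over the alternatives. INSM1, a zinc finger factor of newly born neurons and endocrine cells, had signals of 10.2 in ESC and 120 in EB, against 1668 in N1, 2760 in N2 and 4422 in N3. It was 13.9-fold higher in N1 than in EB and went on upward through the later stages. NHLH1 and NHLH2 encode basic helix-loop-helix factors of neurons leaving the cell cycle. NHLH1 was at 40.2, 136, 956, 1528 and 1857 in the same order of stages, 7.02-fold higher in N1. NHLH2 was at 39.9, 26.1, 584, 892 and 634, at least 5.84-fold higher. Both were low in ESC and EB and clearly present from N1 onward.

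EBF1 and EBF2 encode helix-loop-helix factors that act in neuronal differentiation and migration. EBF1 was at 49.8, 189, 2011, 5630 and 6618 from ESC to N3, a ratio of 10.6, but a second probe set gave a log2 ratio of only 0.07. EBF2 was at 58.8, 86.0, 312, 1471 and 1349, at least 3.12-fold higher, with 1.57 for its other probe set. Of the EBF pair, then, the probe sets of EBF2 gave like ratios and those of EBF1 did not. ONECUT1 was at least 3.01-fold higher (28.9 to 301). SOX11, a SoxC factor that switches on neuronal genes, was bright already in EB at 3187 and reached 7859 in N1 and 20267 in N3, a ratio of 2.47 for N1 over EB. The related SOX4 differed by 1.27-fold. The proneural gene NEUROG2 was below the floor in every stage, and NEUROG1 was at 2.96 in EB and 126 in N1, just above the floor.

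Genes of the neuronal cytoskeleton came next. Of 18 measured members, 11 were at least 2-fold higher in N1 (61.1%, against 5.15% of all genes) and none lower. The median log2 ratio was 1.23, with a range of 1.03 to 1.31 and between 8 and 15 higher members over the alternatives. STMN2, a stathmin that regulates microtubules in growth cones, was at 935 in ESC and 1986 in EB, against 12594 in N1, 13995 in N2 and 24814 in N3. Its ratio was 6.34 and the second probe set gave a log2 ratio of 2.86. Its relative STMN4 was at 60.1, 5.33, 476, 1224 and 3347, at least 4.76-fold higher, whereas STMN3 was only 1.50-fold higher. TUBB3, the neuronal beta-tubulin, was at 3684, 663, 2852, 1819 and 7590. It was 4.30-fold higher in N1 than in EB, and its 2 other probe sets had log2 ratios of 2.47 and 3.05, but ESC lay above N1. DCX, doublecortin of migrating neurons, was at 186, 535, 2222, 6488 and 10607, a ratio of 4.16. The largest ratio among all genes above the floor on both arrays was that of MAP6D1, which encodes a small protein related to the microtubule stabiliser MAP6. It was at 636, 149, 2557, 13185 and 19826, 17.1-fold higher in N1, and had no other measured probe set. MAP6 itself went from 141 to 296, a ratio of 2.11, with 0.52 for its other probe set.

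Other genes of axon growth followed with smaller ratios. NSG1, a neuronal endosomal protein, was 3.28-fold higher with every probe set past 2-fold. CRMP1 and DPYSL3, collapsin response mediators, were both 2.66-fold higher, GAP43 of the growth cone 2.39-fold and the axonal motor KIF5C 2.32-fold, with 0.71 for its other probe set. TUBB3, CRMP1 and KIF5C shared a dip: CRMP1 was at 1514 in ESC and 554 in EB, and KIF5C at 3843 and 478, so that N1 stayed below ESC for all of them. The 7 other measured members were within 2-fold. Among them, PRPH, an intermediate filament, was at 2528 and 2591 and NEFH at 118 and 139. UCHL1, a deubiquitinase abundant in neurons, was at 5145 in EB and 3672 in N1, with 0.11 and -1.17 for its other probe sets.

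Neuronal RNA-binding proteins, which stabilise and splice neuronal transcripts, differed from member to member. The Hu proteins ELAVL2 and ELAVL4 were far higher in N1, while the third, ELAVL3, was below the floor on both arrays. ELAVL2 was at 317, 364, 2985, 5345 and 5558 from ESC to N3, a ratio of 8.20, and its other probe set had a log2 ratio of 2.21. ELAVL4 was at 76.2, 242, 1344, 3780 and 4490, a ratio of 5.56, with 3.18 for the other probe set. CELF3 was at least 2.17-fold higher, but its other probe set was at 0.18. The splicing factors RBFOX1 and NOVA1 differed by 1.89-fold and 1.39-fold, with other probe sets at 0.96 and 0.17 for RBFOX1 and -0.06 for NOVA1, and RBFOX1 reached 4189 only in N3. Of 11 listed genes with a probe set, 5 were below the floor on both arrays, CELF4 and CELF5 among them. The list held 6 measured genes, 3 of them at least 2-fold higher, with a range of 0.62 to 1.21.

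**Figure D2:**
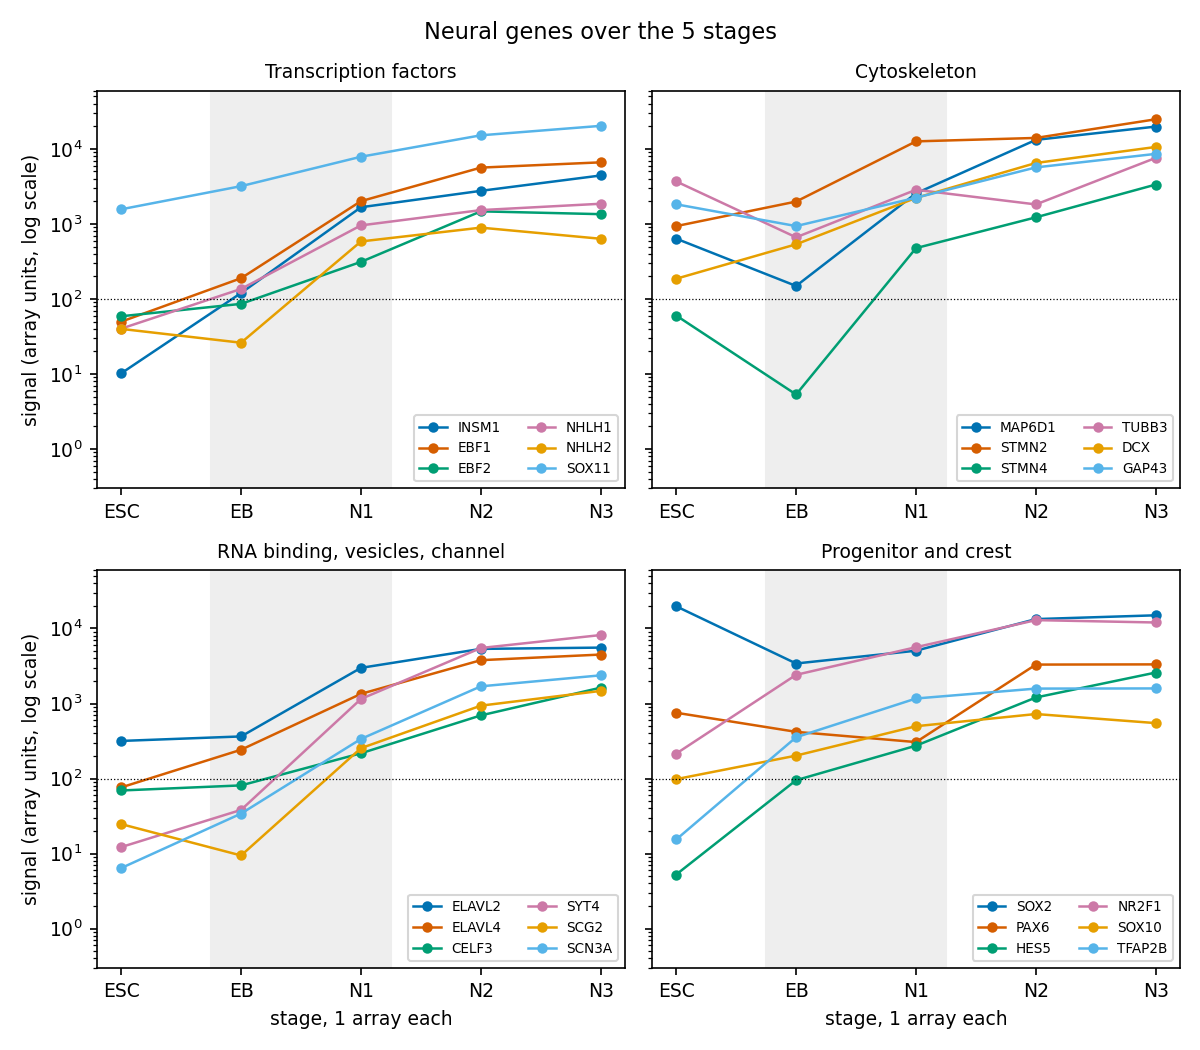
Signal of 24 neural genes over the 5 stages in 4 panels (transcription factors, cytoskeleton, RNA-binding, vesicle and channel genes, progenitor and crest genes), with array units on a log vertical axis. Each point is 1 array, the shading covers EB and N1 and the dotted line is the floor of 100. SYT4, INSM1, NHLH1 and EBF1 lie below 200 in EB and at 956 to 2011 in N1, while PAX6 is lower in N1 than in EB.

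Genes of vesicle release, excitability and transmitter reception were mostly near the median of all genes in N1. Of 10 measured genes of synaptic vesicles and release, SYT4 alone passed 2-fold. SYT4, a synaptotagmin of dense core vesicles, was at 12.2 in ESC and 38.2 in EB, against 1149 in N1, 5490 in N2 and 8174 in N3, at least 11.5-fold higher. SYT1, the calcium sensor of fast release, was at 329 and 530, with 0.78 and 1.54 for its other probe sets, and SV2A at 379 and 328. Of the secretory granule genes SCG2 was at least 2.54-fold higher and CHGB at least 2.14-fold. The sodium channel subunit SCN3A, at 34.1 in EB and 337 in N1, was the only ion channel of 6 past 2-fold (16.7%), at least 3.37-fold higher. None of 8 measured fast transmitter receptor genes passed it. The closest was the glycine receptor subunit GLRB, 155 against 305. Among neuropeptides and their receptors 2 of 6 were lower (33.3%, against 2.20% of all genes) and none higher. CCKBR, the gastrin and cholecystokinin receptor, was at 495, 2106, 333, 138 and 68.3, 6.32-fold lower in N1, and NMU was 2.51-fold lower.

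Of 26 measured axon guidance and adhesion genes, 4 were at least 2-fold higher (15.4%) and 1 lower (3.85%), against 5.15% and 2.20% of all genes. ROBO2, a receptor for the repellent SLIT proteins, was 3.67-fold higher (121 to 443), EPHA3 2.70-fold, and EPHB2 2.13-fold, and the netrin receptor UNC5C (197 to 395) was just past the threshold. The second probe set of EPHA3 had a log2 ratio of 0.12. EPHB1 was the lower gene, at 15.6, 1210, 449, 1718 and 3006, so N1 formed a low point between EB and the later stages, and its other probe sets were at -0.75 and -0.05. ROBO1 differed by 1.14-fold. CNTN5, a contactin of axonal membranes that is not on the list, was at 84.2 in EB and 899 in N1, at least 8.99-fold higher.

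Progenitor genes showed no common shift. SOX2, which maintains neural progenitors and pluripotent cells, was at 19736, 3413, 5056, 13336 and 14978, 1.48-fold higher in N1 than in EB, with 0.45 and 1.27 for its other probe sets. PAX6 was at 753, 419, 306, 3301 and 3322, 1.37-fold lower, while its other probe set had a log2 ratio of 0.65. For both, N1 stayed well below N2 and N3. NR2F1, an orphan nuclear receptor of the developing brain, was the 1 member of 11 that was at least 2-fold higher (2412 to 5628, 2.33-fold, with 0.41 for its other probe set), and ZIC2 the 1 that was lower (4352 to 2158). Each made 9.09% of the measured progenitor genes, against 5.15% higher and 2.20% lower of all genes. In the Notch pathway 2 of 15 measured genes were higher (13.3%, against 5.15% of all genes). HES6, an inhibitor of HES1 that promotes differentiation, went from 297 to 853, a ratio of 2.87. HES5, a direct Notch target, went from 95.0 to 274, at least 2.74-fold, although its other probe set was at 0.42. No ligand or receptor passed 2-fold: DLL1 was at 935 and 1221, DLL3 at 139 and 273, DLL4 at 264 and 145 and NOTCH2 at 1453 and 1425.

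None of 18 measured cell cycle genes differed by 2-fold. Their median log2 ratio was -0.36 and lay between -0.37 and -0.18 relative to all genes. MKI67, a marker of cycling cells, was at 1911 in EB and 1287 in N1, with -0.13 and 0.43 for its other probe sets. AURKB, MCM3 and MCM5 were 1.80-fold, 1.79-fold and 1.78-fold lower, and MCM5 had 0.41 for its other probe set. TOP2A and CDK1 were nearly equal. Genes of cell cycle exit had a median of 0.55, with a range of 0.44 to 0.62. The cyclin-dependent kinase inhibitors CDKN1A and CDKN1B were 1.75-fold and 1.46-fold higher, and CDKN2A was the exception at 2.25-fold lower. AURKB, MCM3, MCM5, CDK1, CDKN1A and CDKN1B were chosen after their values were seen.

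HOX genes, which set position along the body axis, were mostly within 2-fold between EB and N1. Of 8 measured members of paralog groups 1 to 5, HOXB3 alone passed 2-fold (12.5%), at 15.6 in EB and 264 in N1. Of 13 measured members of groups 6 to 13, HOXA13 was 2.20-fold and HOXD13 at least 2.08-fold higher (15.4%), with 0.06 for the other probe set of HOXD13. The share higher among all genes was 5.15%. HOXA9, the brightest of them, was at 53.4 in ESC and 5869 in EB, against 5296 in N1, 8980 in N2 and 11316 in N3. Of 7 measured forebrain and eye factors DLX1 alone was higher (14.3%), 132 to 392, a ratio of 2.96. Of 7 midbrain and anterior hindbrain factors none passed 2-fold.

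Genes of the serotonin neuron, the target of the culture, did not stand out in N1. TPH1 and TPH2, the enzymes that begin serotonin synthesis, were below the floor in every stage. FEV, the transcription factor of serotonin neurons, was at 89.6 in EB and 121 in N1 and below the floor in N2 and N3. The vesicular transporter SLC18A2 was at 189 and 178. Of 10 measured genes on the list the only member past 2-fold was GATA3, which was 2.76-fold lower (3911 to 1418), with -1.69 for its other probe set, and which also acts in trophoblast and autonomic neurons. The list's median lay between -0.52 and 0.15 and changed sign in 2 of the 9 alternatives.

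Factors of sensory and autonomic neurons and of the neural crest gave a mixed picture. ISL1, shared by motor, sensory and heart progenitors, was at 1859 in EB and 3550 in N1, a ratio of 1.91. ISL2 was 2.19-fold and TLX3, of sensory neurons, at least 2.46-fold higher, the latter with 0.37 for its other probe set. On that list 2 of 8 measured genes were higher (25.0%) and 1, GATA3, was lower (12.5%), against 5.15% and 2.20% of all genes. Of 13 measured crest and glial genes 4 were higher (30.8%) and none lower. TFAP2B, a crest and sympathetic factor, was at 15.4, 355, 1166, 1580 and 1588, a ratio of 3.28, and its other probe set had a log2 ratio of 0.47. SOX10, which marks crest and glial precursors, was at 98.2, 202, 498, 724 and 548, 2.47-fold higher, with 0.79 for its other probe set. NGFR was at least 2.34-fold and S100B at least 2.89-fold higher. PAX3 and FOXD3, earlier crest genes, differed by 1.12-fold and 1.02-fold.

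Retinoic acid is made by aldehyde dehydrogenases, carried by cellular binding proteins and degraded by CYP26 enzymes, and it patterns the hindbrain and spinal cord. The synthetic genes ALDH1A2 and RDH10 were higher in N1 and the degrading enzyme CYP26A1 lower. ALDH1A3, another aldehyde dehydrogenase, was within 2-fold (86.6 in EB and 157 in N1), and CYP26B1 was below the floor on both arrays. ALDH1A2, which makes retinoic acid, was at 50.2, 1180, 3073, 2812 and 1335, 2.61-fold higher, with 1.78 for its other probe set. RDH10, the retinol dehydrogenase before it, was at 152 in EB and 503 in N1, a ratio of 3.31, and its other probe sets had log2 ratios of 0.19, 1.60 and 1.83. CYP26A1 was at 6571, 806, 191, 338 and 105, 4.23-fold lower in N1. The binding protein CRABP1 was 3.13-fold higher (3811 to 11922), whereas CRABP2 went the other way, 11041 to 7128. RARB, a receptor gene that retinoic acid itself induces, was at 320 and 296. Of 13 measured genes 3 were higher (23.1%) and 1 lower (7.69%), against 5.15% and 2.20% of all genes, and the median log2 ratio was 0.24. Between 3 and 4 of the 13 measured genes were at least 2-fold higher under each alternative, and exactly 1 was lower.

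BMP signals are held down by secreted antagonists and by inhibitory SMADs, and in the early embryo BMP favours epidermis and mesoderm over neural tissue. Of 16 measured genes of the BMP and TGF-beta pathway none was at least 2-fold higher in N1 and 5 were lower (31.2%, against 2.20% of all genes). The list's median log2 ratio was -0.41, with a range of -0.61 to -0.38 and between 2 and 7 lower members over the alternatives. The ligand BMP2 was at 91.9 in ESC and 3740 in EB, against 945 in N1, 502 in N2 and 260 in N3, 3.96-fold lower, with -1.10 for its other probe set. BMP4 was 1.70-fold lower. The antagonist FST was 2.53-fold lower, with -1.76 and -2.46 for its other probe sets, and the modulator BMPER at least 2.43-fold. SMAD6, an inhibitory SMAD and BMP target, was 2.10-fold lower and MSX1 2.04-fold. The lower genes thus included a ligand, antagonists and targets. ID1 and ID3, direct BMP targets, were 1.42-fold and 1.33-fold higher. In the hedgehog pathway IHH, a ligand of gut and cartilage, was 2.90-fold lower, but its other probe set was at -0.02, and the target genes GLI1 and PTCH1 differed by 1.26-fold and 1.11-fold.

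Of 17 measured insulin-like growth factor genes 3 were higher (17.6%, against 5.15% of all genes) and none lower. IGF1 was at 86.7, 277, 1240, 2823 and 1477, 4.47-fold higher in N1, with a log2 ratio of 1.77 for its other probe set. IGFBP5, a binding protein, was at 55.3 in EB and 454 in N1, at least 4.54-fold higher. IGF2BP1 was 3.47-fold higher, but its other probe set was at -0.27. IGF2, chosen after its values were seen, was at 1299 and 1875.

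Genes tied to components of N2 supplement were also listed, except for progesterone, which had no list. Whether the supplement had a part in their ratios was not tested. Transferrin delivers iron through the receptor TFRC, which was at 7268 in EB and 3531 in N1, 2.06-fold lower. In the same list HFE, which binds that receptor, was at least 2.37-fold higher, although its other probe set was at 0.06. Putrescine is the product of ODC1. ODC1 was at 20786 and 10647, 1.95-fold lower, and SAT2, related to the acetyltransferase that breaks polyamines down, was 2.57-fold higher, while that enzyme, SAT1, was at 16209 and 9945. Selenium is built into selenoproteins, of which SELENOM was 2.17-fold higher (7.69% of the measured genes, against 5.15% of all genes) and none of the other 12 passed 2-fold. The insulin-responsive gene SREBF1 was at 468 and 883, with 1.27 for its other probe set, and PDK4, which insulin represses, was at least 2.04-fold higher. TXNIP, a glucose-responsive inhibitor of thioredoxin, was 1.62-fold higher by its brightest probe set, while its 4 other probe sets had log2 ratios of 2.39, 2.64, 2.93 and 3.10. ODC1, SAT1, SREBF1 and TXNIP were chosen after their values were seen. Iron and polyamine genes as lists lay near the median of all genes, at -0.10 and -0.14.

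Plasma proteins of the kind made by liver and yolk sac endoderm differed in both directions. Of 32 measured genes 8 were at least 2-fold higher in N1 and 1 lower, against 5.15% and 2.20% of all genes, and the median log2 ratio was 0.23, with a range of 0.14 to 0.56. Over the alternatives 4 to 14 were higher. ITIH1, an inter-alpha-trypsin inhibitor heavy chain, was at 9.42 in ESC and 172 in EB, against 1768 in N1, 293 in N2 and 19.6 in N3, 10.3-fold higher in N1. SERPIND1, heparin cofactor, was at 20.5, 404, 1344, 166 and 4.10, a ratio of 3.33. Both had their highest signal in N1 and were gone by N3. AHSG, fetuin, was at 84.4, 2299, 6691, 1721 and 284, 2.91-fold higher. The apolipoprotein APOA2 was at 7.55, 1505, 5293, 2825 and 205, a ratio of 3.52, and APOA4 was at least 4.13-fold higher. APOB was at 131 and 302, a ratio of 2.31. SERPINA6, the corticosteroid carrier, which is not on the list, was 5.75-fold higher (155 to 893).

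For a pair of these genes the probe sets disagreed. SERPINA1, alpha-1-antitrypsin, was 3.46-fold higher by its brightest probe set (3923 to 13569), while the others gave log2 ratios of 0.94, 1.89, -0.21 and -0.08. APOC3 was 3.11-fold higher (2998 to 9328), with 1.64 and -0.35 for the others. With probe sets able to bind related transcripts left out, the log2 ratios became -0.21 for SERPINA1 and -0.35 for APOC3, so the direction of both turned.

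The genes of this list with the highest EB signals, FGB, APOA1 and FGG, were within 2-fold. FGB was at 3.48, 26301, 15461, 3222 and 71.2, 1.70-fold lower in N1, and FGG was at 12758 in EB and 8274 in N1, while FGA, the third fibrinogen chain, was 1.64-fold higher (4800 to 7857), with 1.06 and 0.96 for its other probe sets. APOA1 was at 20596 and 16909, AFP at 601 and 484, and the lipocalin APOM was 2.34-fold lower (4670 to 1997). FGA and FGG were chosen after their values were seen.

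Genes of endoderm and of absorptive epithelium, the lining of gut and yolk sac that takes up and repackages lipid, had the lowest median of the 43 lists. Of 17 measured genes 9 were at least 2-fold lower in N1 (52.9%) and 1 higher (5.88%), against 2.20% and 5.15% of all genes. The median log2 ratio was -1.14, with a range of -1.13 to -0.92 and between 5 and 11 lower members over the alternatives. MTTP, which loads lipid onto apolipoprotein B, was at 83.7 in ESC and 8791 in EB, against 1996 in N1, 902 in N2 and 308 in N3, 4.40-fold lower, with -0.82 for its other probe set. CREB3L3, a membrane-bound factor of liver and gut, was at 135, 1100, 269, 158 and 127, 4.09-fold lower, with -1.84. CUBN and LRP2, endocytic receptors that work together, were 3.40-fold (536 to 158) and 2.33-fold (2697 to 1156) lower. All these genes had their highest signal in EB.

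Besides CREB3L3, 4 transcription factors on the list were at least 2-fold lower. SOX17 was at 690 in EB and 289 in N1, 2.39-fold lower, with -1.20 for its other probe set. FOXA3 was 3.26-fold lower (664 to 204), CDX2 2.56-fold (3138 to 1224, with -0.38 for its other probe set) and CDX1 at least 3.18-fold. Within 2-fold were FOXA1 (4456 to 2709), FOXA2 (617 to 315), GATA4 (276 to 286), GATA6 (6158 to 5310) and HNF4G (438 to 567). FABP1, a fatty acid carrier, was 2.20-fold lower (2341 to 1065, with -0.99 for its other probe set). FABP1, FOXA1, GATA4, GATA6 and HNF4G were chosen after their values were seen. The exception was VIL1, villin of microvilli, 2.47-fold higher, but its other probe sets were at -0.76 and -0.43. Outside the list, PDZK1, a scaffold of apical transporters, was at 41.0, 8498, 2498, 737 and 93.0, 3.40-fold lower with -1.71 for its other probe set. PLA2G12B, which acts in lipoprotein secretion, was 3.44-fold lower and SLC51A, a bile acid exporter subunit, 3.87-fold.

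Of the globins, 3 were among the genes with the largest ratios, while HBB was below the floor in both stages (46.1 in EB and 24.6 in N1). HBE1, the embryonic beta-type chain, was at 16.7 in ESC and 224 in EB, against 2077 in N1, 118 in N2 and 14.6 in N3, 9.28-fold higher in N1. HBG2, a fetal chain, was at 44.1, 586, 5079, 308 and 43.0, a ratio of 8.67, and HBA, the alpha chain, was at 26.8, 177, 1513, 75.9 and 15.9, a ratio of 8.55. The 3 genes peaked in N1 and were low again in N2. ALAS2, the first enzyme of heme synthesis in red cell precursors, went the opposite way, at 104, 789, 96.5, 173 and 81.5, at least 7.89-fold lower. KLF1, the erythroid factor that drives adult globin, was at 152 in EB and 76.7 in N1, and the early erythroid factor GATA1 and the chaperone AHSP were below the floor in both. Of 14 listed red cell genes with a probe set, 7 were below the floor in both stages, and the list's median of -0.05 differed in sign from its mean of 0.79.

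**Figure D3:**
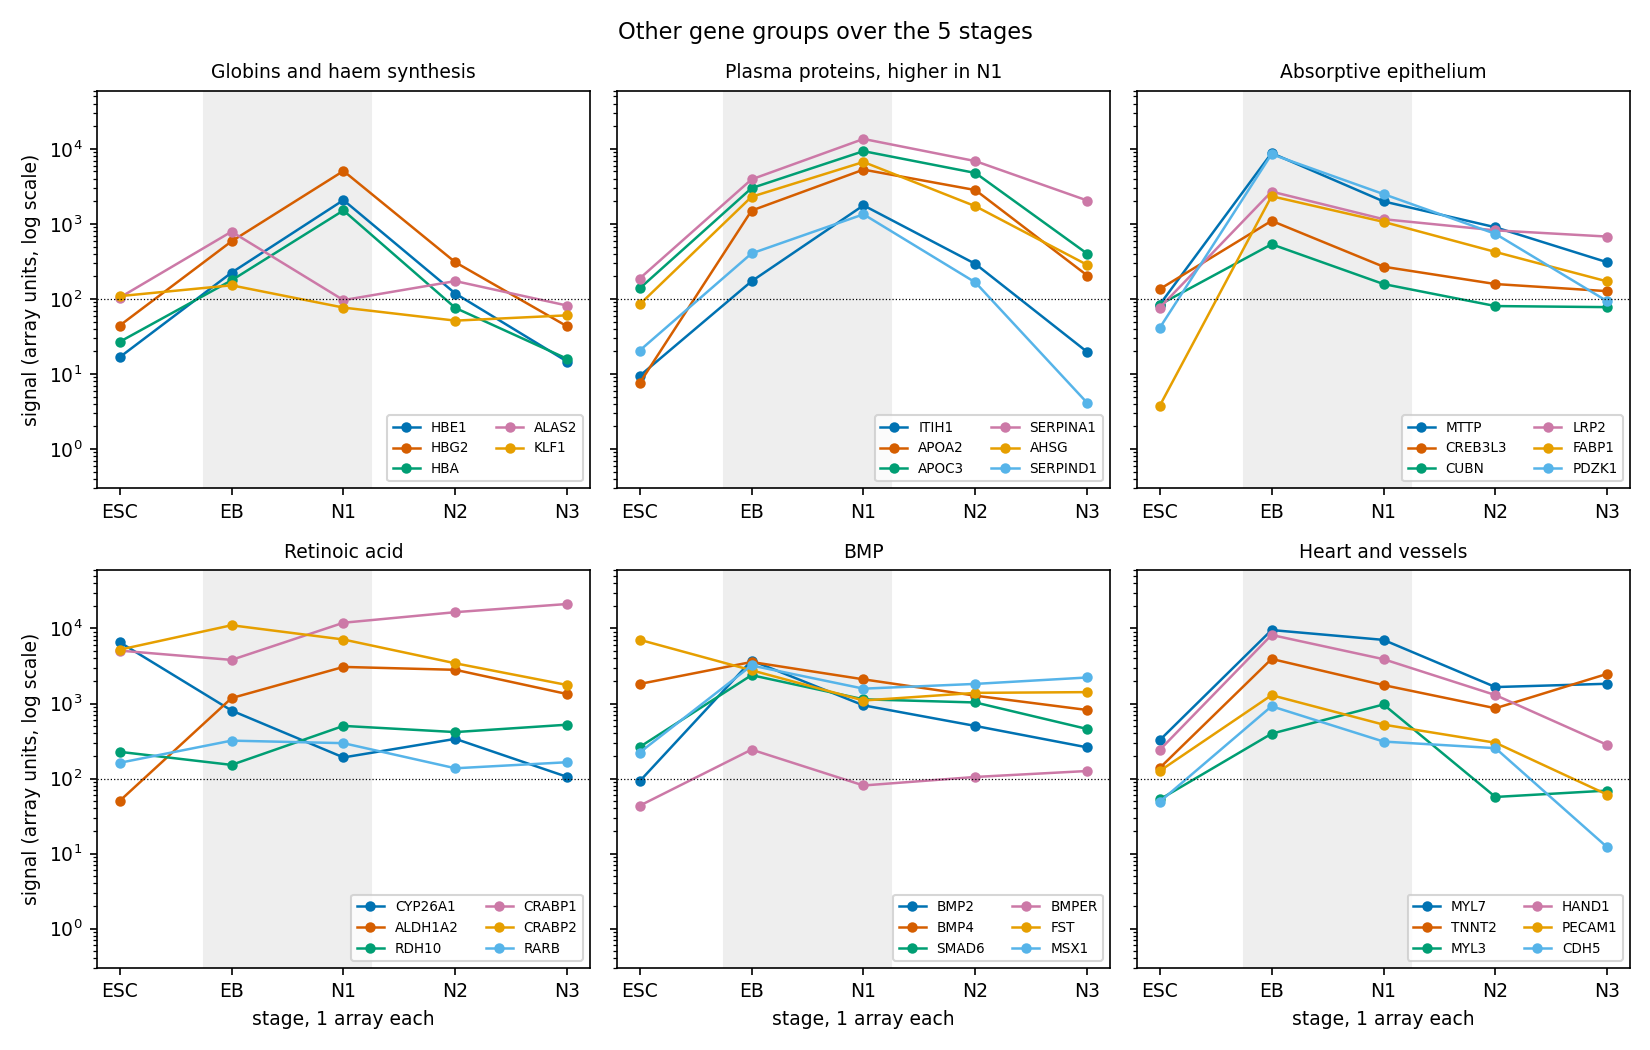
Signal of globin, plasma protein, absorptive epithelium, retinoic acid, BMP, and heart and vessel genes over the 5 stages, 1 panel per group, with array units on a log vertical axis. Each point is 1 array, the shading covers EB and N1 and the dotted line is the floor of 100. HBE1, HBG2, HBA and ITIH1 have their highest point in N1, whereas MTTP, CUBN, BMP2 and ALAS2 have theirs in EB.

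Heart genes were lower in part. Of 17 measured members 4 were at least 2-fold lower (23.5%) and 1 higher (5.88%), against 2.20% and 5.15% of all genes. TNNC1 was 2.91-fold lower (1058 to 364), TNNT2 2.23-fold (3926 to 1759) with -1.30 for its other probe set, the early factor HAND1 2.10-fold (8193 to 3897) and the atrial myosin MYH6 2.09-fold (2498 to 1197). MYL7, the atrial light chain, was at 9531 and 7044. MYL3, a light chain of ventricle and slow muscle, was higher, at 396 and 971, a ratio of 2.45. None of 4 skeletal and 7 smooth muscle genes passed 2-fold.

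Among 8 measured endothelial genes, 2 were lower by 2-fold or more (25.0%) and 1 was higher (12.5%), against 2.20% and 5.15% of all genes. Among 6 leukocyte genes, 2 were lower (33.3%) and none higher. Over the alternatives the endothelial, leukocyte and trophoblast lists each had 0 lower members at the fewest and 4, 2 and 4 at the most. The junction proteins CDH5 and PECAM1 were 2.95-fold and 2.47-fold lower, with other probe sets at -0.13 for CDH5 and at -0.88 and -0.79 for PECAM1, and EMCN at least 2.36-fold higher. The leukocyte genes CD14 and LCP1 were 2.25-fold and 2.24-fold lower, and LCP1 had -1.10 for its other probe set. Of 10 measured trophoblast and amnion genes 4 were lower, CDX2, GATA3, HAND1 and TFAP2C, of which the first 3 also stand on other lists, and TP63 was at least 2.12-fold higher. The epithelial keratin KRT19 was at 1954, 17852, 7979, 2889 and 1118, 2.24-fold lower, with every probe set past 2-fold.

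Among the 7 pluripotency genes measured, 2 passed 2-fold downward in N1 (28.6%, against 2.20% of all genes) and none upward. POU5F1 was at 28621 in ESC and 906 in EB, against 249 in N1, 80.3 in N2 and 14.7 in N3, 3.64-fold lower in N1. SALL4 was at 2395, 2892, 836, 908 and 579, 3.46-fold lower. The probe set of NANOG gave 1047, 1178, 2145, 1169 and 2155 from ESC to N3, 1.82-fold higher in N1 than in EB. Matrix genes lay near the median of all genes. COL1A1 was 2.40-fold (3604 to 8634) and COL3A1 2.83-fold higher (100 to 284), whereas LUM, DCN and FN1, with EB signals of 17532, 7189 and 38381, did not reach 2-fold. Hypoxia and unfolded protein genes had no member past 2-fold, and of 9 measured p53 genes TP53I3 alone was (11.1%), at 2.29-fold lower.

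**Figure D4:**
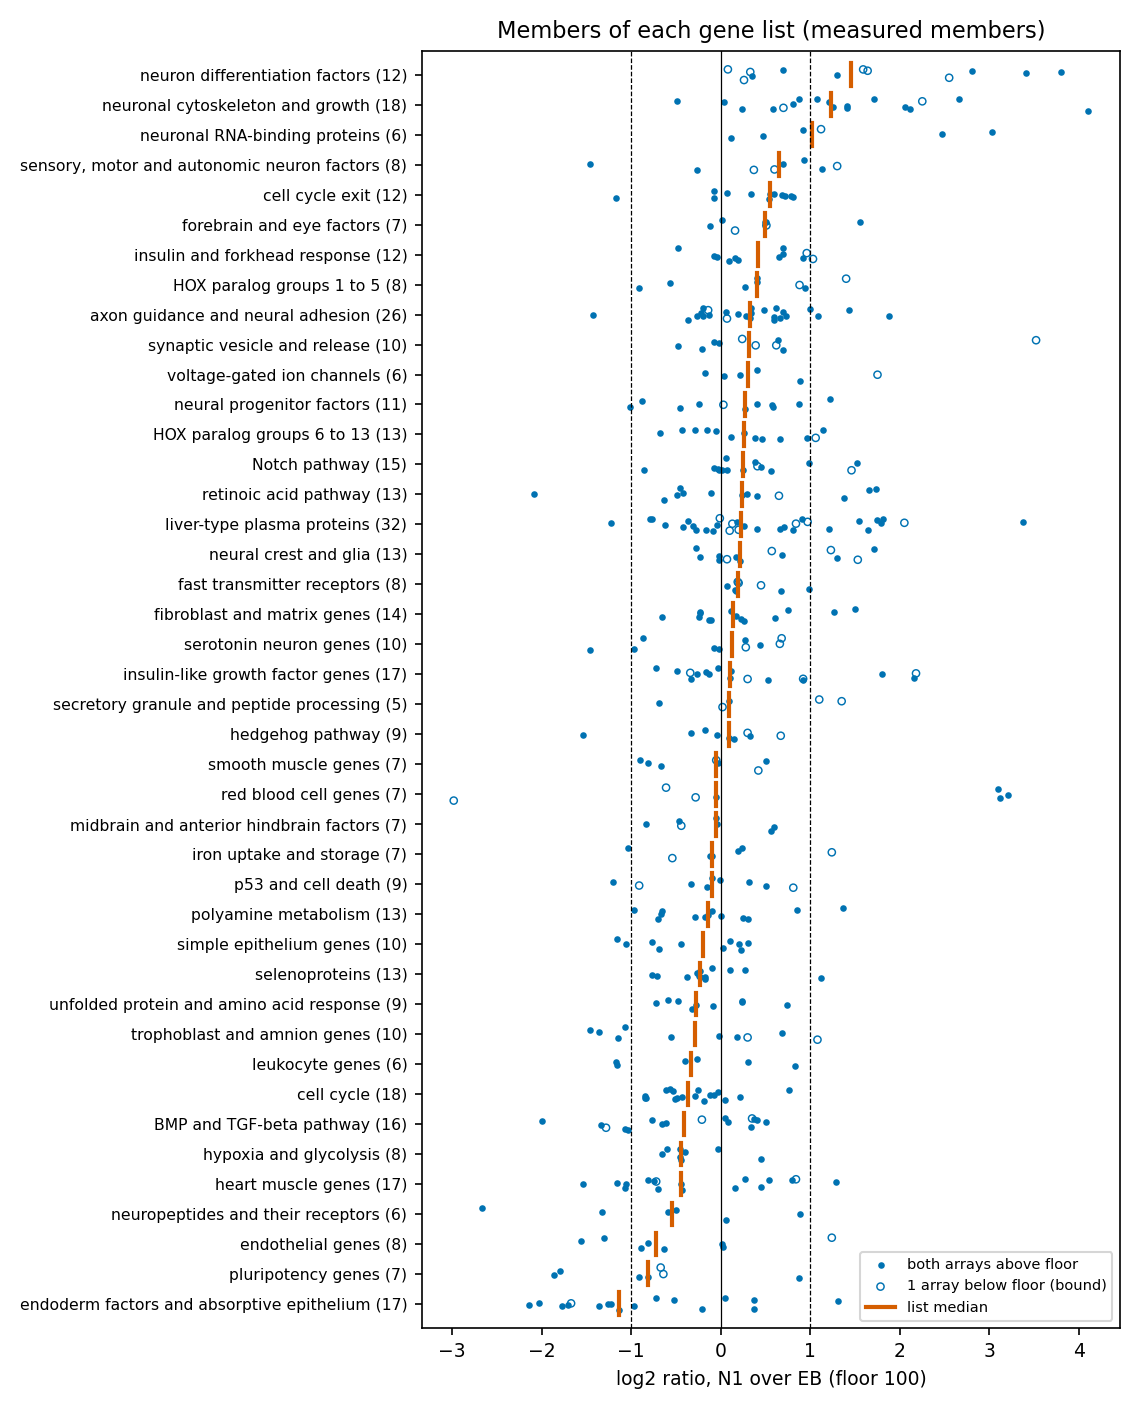
Log2 ratio of N1 over EB (horizontal axis) for every measured member of the 43 gene lists except skeletal muscle, which had 4 measured members. Each list has 1 row with its number of measured members, ordered by the list median (bar). Filled points are genes above the floor on both arrays, open points are bounds and dashed lines mark 2-fold. Medians run from 1.45 for neuron differentiation factors to -1.14 for endoderm and absorptive epithelium, and the red blood cell row splits into globins near 3 and ALAS2 at -2.98.

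Several genes with large ratios belong to none of these groups. SHISA3, a membrane protein that dampens Wnt and FGF receptors, was at 1.62, 411, 3384, 1478 and 256, 8.24-fold higher and highest in N1. NFIB, a nuclear factor of brain and lung development, was 5.83-fold higher (572 to 3332), and its 4 other probe sets ranged from 0.41 to 2.83. TMEFF2 was 5.79-fold, GAS2 5.78-fold and NREP 5.22-fold higher. SHOX2, a homeobox gene of limb, heart and neurons, was 5.01-fold higher and ZPR1 6.67-fold, but their other probe sets were at 0.10 and 0.31. NUPR1, a stress-induced chromatin protein, was at least 7.33-fold higher. Genes with every probe set past 2-fold included MOXD1, a relative of dopamine beta-hydroxylase (1239 to 4026), the homeobox cofactor DACH1 (874 to 2848), the synuclein partner SNCAIP (354 to 1127) and MYOZ2, a protein of the muscle Z disc (132 to 466).

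The largest ratio in the other direction was that of LOC715831, a locus that RefSeq lists as a pseudogene on assembly T2T-MMU8v2.0. It was at 75.3 in ESC and 13457 in EB, against 506 in N1, 169 in N2 and 62.8 in N3, 26.6-fold lower in N1 and bright in EB alone. HAPLN1, a link protein of hyaluronan matrix, was below the floor in ESC, at 12494 in EB and then at 3596 in N1, 1237 in N2 and 518 in N3, 3.47-fold lower, with -2.52 and -2.34 for its other probe sets. PRDM1, a transcriptional repressor with roles in germ cells and endoderm, was 3.41-fold lower (-0.83 for its other probe set), the FGF feedback inhibitor SPRY4 3.44-fold, and the calcium-activated kinase PTK2B at least 4.49-fold. The channel TRPV2 was at least 6.89-fold lower. ENPEP, an aminopeptidase of brush borders, was 3.96-fold lower by its brightest probe set, but the others were at 1.08 and -0.07. NUP133 was at 10620 in ESC and 1142 in EB, against 310 in N1, 914 in N2 and 3907 in N3, 3.68-fold lower in N1 and lowest there.

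How the genes higher or lower in N1 behaved at the other stages was counted over all of them. Of the 532 genes at least 2-fold higher, 211 had their highest signal in N3, 160 in N1, 91 in ESC and 70 in N2. EB could not be the highest stage of such a gene, and choosing genes by N1 over EB itself favours N1. Among all 10335 measured genes the highest stage was ESC for 3414, EB for 2223, N3 for 1918, N2 for 1471 and N1 for 1309. Of the 227 lower genes 158 were highest in EB, 53 in ESC, 11 in N3 and 5 in N2. For these N1 could not be the highest stage, and the choice favours EB. Among the higher genes, INSM1, DCX and STMN2 were highest in N3, and HBE1, HBG2, HBA, ITIH1, AHSG and SHISA3 peaked in N1.

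Probe sets of the same gene gave the only measure of technical disagreement. For 4144 genes with at least 2 measured probe sets, the difference in log2 ratio between the 2 brightest was taken. The SD of that difference, divided by the square root of 2, was 0.450. This is a value per probe set and not a spread between replicates. Of 180 higher genes with more than 1 measured probe set, 41 (22.8%) had every one past 2-fold and 157 had every one above 0. Of 79 lower genes, 19 (24.1%) had every one past 2-fold and 54 every one below 0. STMN2, ELAVL2, ELAVL4, TUBB3, IGF1 and ALDH1A2 belong to the first 41, and CREB3L3, HAPLN1, PDZK1, SOX17, LRP2, GATA3, FST and TNNT2 to the 19.

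**Figure D5:**
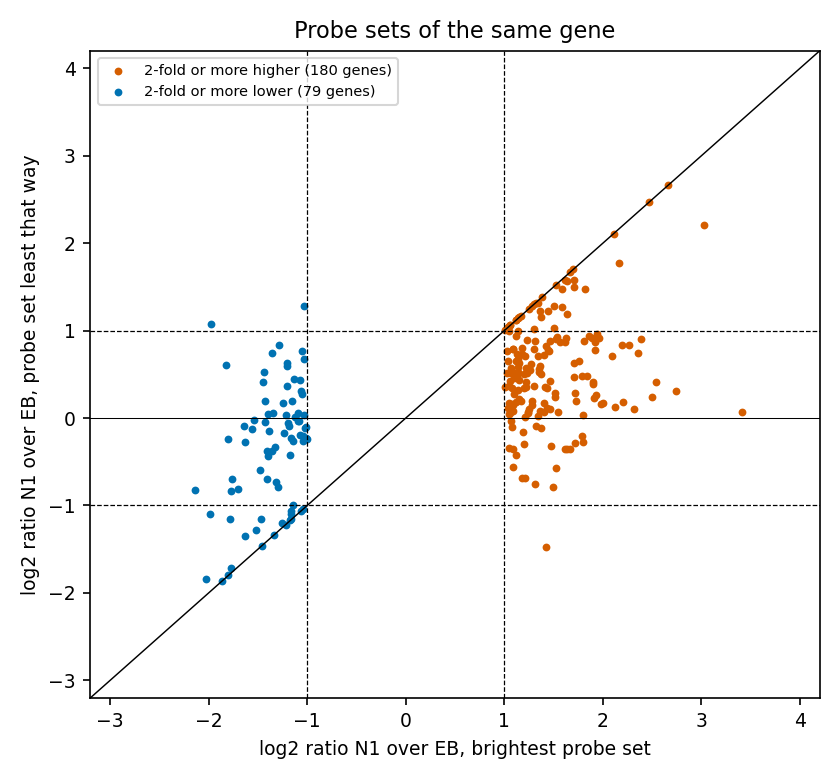
Log2 ratio of N1 over EB for the brightest probe set of a gene (horizontal axis) against that of its probe set lying least in the same direction (vertical axis), for the 180 higher and 79 lower genes with more than 1 measured probe set, 1 point per gene. Dashed lines mark 2-fold and the diagonal equal ratios; 41 higher and 19 lower genes lie past 2-fold on both axes.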

How the data were processed

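The values deposited by the authors are linear intensities, with GCOS 1.0 named in the submitters' processing notes. The algorithm, the detection calls and any genome build were not given in the sources used here. Deposited 2% trimmed means were 199.1 to 199.3. Values were multiplied by 2.508 to 2.511 to a trimmed mean of 500, floored at 100 and put on a log2 scale with Python 3.11.15, pandas 2.3.3 and numpy 2.4.6. The number of arrays limits the precision.

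Of 52865 probe sets, 24969 carried 1 symbol in GEO's platform table, whose names can be old, and 361 several, while 27535 were not listed. A gene was represented by its probe set with the highest mean over 5 arrays. Of the 25330 listed, 24629 had an Entrez identifier in a RefSeq table.

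The comparison and the 43 gene lists (850 genes, 613 with a probe set) were chosen with earlier results of these data known. Genes named are the 20 with the largest ratio each way among those at 100 or more on both arrays and at least 200 on the brighter, the 10 largest bounds each way, 15 each way with every probe set past 2-fold, up to 8 members of a list past 2-fold, and 48 fixed markers, 37 of them with a probe set. List members within 2-fold are given as examples and were, like other genes outside this rule, chosen after their values were seen. The counting was checked on simulated data. Alternatives were 4 scalings, a floor of 50 or of 200, log2(value + 1) without a floor, the median over a gene's probe sets, dropping those that can bind related transcripts, a threshold of 4-fold, and counting only genes with every probe set past 2-fold.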

Additional observations from a re-analysis of the deposited data

Results flagged for a closer look

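Probe sets with no name in the annotation, or with several, were used in no comparison above. Those with several names were not counted here. Of 11243 without a name that reached 100 in EB or N1, 790 were at least 2-fold higher in N1 (7.03%) and 198 at least 2-fold lower (1.76%), against 5.15% and 2.20% of named genes. The unit is a probe set for the first pair of shares and a gene for the second. Which transcripts the unnamed probe sets measure was not established.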

How the results depend on the processing

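No paired analysis was possible because each stage has 1 array. Genes at least 2-fold higher numbered 532, and 354 after quantile normalisation, 280 with equal medians, 1492 with hybridisation controls, 872 and 322 with floors of 50 and 200, 864 with no floor, 56 at 4-fold and 41 with every probe set. Lower genes numbered 227, and 847 with equal medians, 75 with hybridisation controls, 342 with a floor of 50, 10 at 4-fold and 19 with every probe set. Scalings other than quantile normalisation multiply each array by a constant, a shift that largely cancels in a list median minus that of all genes. Closeness under those scalings was mostly fixed in advance and is no measure of robustness. List medians minus that of all genes stayed close in 373 of 387 recomputed values. The others were, with a floor of 50, -0.16 for endothelial genes, 1.12 for secretory granules, 0.70 for skeletal and -0.67 for smooth muscle; with a floor of 200, -1.11 for leukocytes, 2.98 for red cells, -0.52 for serotonin genes and -0.61 for smooth muscle; with no floor, 1.00 for fast receptors, 2.55 for neuron differentiation factors, 1.90 for secretory granules, 1.77 for skeletal and -0.64 for smooth muscle; and with equal medians 0.75 for secretory granules. A floor changes which dim genes are measured; other causes were not tested. Of the 20 largest ratios each way above the floor, 19 higher and 16 lower genes stayed past 2-fold in every alternative with a value, and ENPEP reached 0.03 with the median of its probe sets. Of the 10 bounds each way, 9 and 4 did so. Signals near 100 limit these bounds.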
